A study of Mus musculus with 23 samples.

Results

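The spleens of mice on a high fibre diet were set against the spleens of mice given acetate, to see where captured methylated DNA at gene starts differs between fibre in the food and acetate in the water. The comparison covers every window of the deposited spleen table, 41388 windows of 3 kb at gene starts, in 8 libraries: 4 from high fibre and 4 from acetate mice. They belong to a series of 23 libraries, 12 from spleen and 11 from the left ventricle of the heart, with a control diet as the third group. All mice were male C57Bl/6, were housed singly, and had minipump surgery, with the diets begun 3 weeks before surgery and kept up to the end. High fibre mice ate a diet rich in resistant starch. Acetate mice drank 100 mM magnesium acetate. Control mice ate a diet without resistant starch, and protein, lipids, vitamins, sodium and potassium were similar in both diets. What the minipumps held, the food of the acetate mice and the age of the mice are not given in the labels. The labels also do not tie each library to a separate mouse, so every p-value below measures the spread between libraries, which may be technical in part.

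Resistant starch escapes digestion in the small intestine and is fermented by gut bacteria to the short-chain fatty acids acetate, propionate and butyrate. These reach the blood, act on receptors of leukocytes, and serve as carbon for acetyl-CoA, and butyrate inhibits histone deacetylases. In DNA, methyl groups sit mostly on cytosines that precede a guanine (CpG), where they are written by the DNMT enzymes and removed through TET oxidation. CpG-dense starts of active genes usually carry little of the mark, while imprinted and germline genes and repeats carry much. The spleen mixes B cells, T cells, macrophages, red cell precursors and stroma, so that in bulk tissue a smaller share of a cell type and less captured DNA per cell cannot be told apart.

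Methylated fragments were pulled down with a methyl-CpG binding protein and sequenced, and reads were counted per window. A CPM value is the read count scaled to library size, with the trimmed mean of M-values (TMM) as the scale. It compares libraries and gives no methylation percentage, since no unenriched library was used and DNA copy number and capture efficiency also enter. All values below are means ± SD of 4 libraries per diet unless stated. Fold changes are log2, high fibre over acetate, from edgeR's quasi-likelihood test, and the threshold was an adjusted p of 0.05 over all windows tested.

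Total counts ran from 6648287 to 8264452 in high fibre spleen, from 4364397 to 8011654 in acetate spleen and from 7342136 to 9870625 in control spleen, with median counts per window of 16 to 18, 14 to 21 and 13 to 29. The 5 largest windows, led by the predicted gene Gm10800, took 62.0% ± 5.13 of counts on high fibre, 57.6% ± 3.08 on acetate and 62.2% ± 3.10 on control. The difference between high fibre and acetate did not exceed the spread (exact permutation test, two-sided, p = 0.229, adjusted over 4 composition measures 0.343, where 0.0286 is the smallest p that 4 against 4 libraries allow). The tissue label was checked on 12 leukocyte and 12 cardiomyocyte genes over all diets. Of the leukocyte genes, 10 carried less captured DNA in spleen than in heart and 0 more (median log2 difference -0.71, where 49.1% of 33982 windows were called lower). Of the cardiomyocyte genes, 8 carried more and 3 less (median 1.01, where 37.9% of windows were called higher).

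The gene starts of 3 windows are shown first, Tbc1d2b, Wnk1 and Med6, since these had the smallest p-values of the named windows, Tbc1d2b on the higher side and Wnk1 and Med6 on the lower. In all 3 the RefSeq start falls at or close to the gene's end coordinate, where a gene on the minus strand begins. Each run holds the 250 bases before and the first 50 bases of the gene, from RefSeq on GRCm38.p6, read on the minus strand. CpG pairs are in capitals. How the deposited windows are centred is not stated, so reads may have fallen elsewhere in the window.
Tbc1d2b: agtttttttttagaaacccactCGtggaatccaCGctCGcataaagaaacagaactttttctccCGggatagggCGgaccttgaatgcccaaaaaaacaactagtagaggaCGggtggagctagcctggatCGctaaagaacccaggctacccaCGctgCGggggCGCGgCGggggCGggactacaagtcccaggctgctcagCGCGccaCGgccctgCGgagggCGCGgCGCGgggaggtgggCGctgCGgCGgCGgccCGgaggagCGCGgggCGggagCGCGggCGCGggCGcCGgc
Wnk1: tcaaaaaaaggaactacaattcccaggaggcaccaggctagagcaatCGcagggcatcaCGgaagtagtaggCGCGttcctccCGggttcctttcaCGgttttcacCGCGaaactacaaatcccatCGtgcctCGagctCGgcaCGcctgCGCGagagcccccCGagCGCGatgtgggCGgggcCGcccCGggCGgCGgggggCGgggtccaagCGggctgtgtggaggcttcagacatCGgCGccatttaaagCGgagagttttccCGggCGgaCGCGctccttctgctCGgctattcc
Med6: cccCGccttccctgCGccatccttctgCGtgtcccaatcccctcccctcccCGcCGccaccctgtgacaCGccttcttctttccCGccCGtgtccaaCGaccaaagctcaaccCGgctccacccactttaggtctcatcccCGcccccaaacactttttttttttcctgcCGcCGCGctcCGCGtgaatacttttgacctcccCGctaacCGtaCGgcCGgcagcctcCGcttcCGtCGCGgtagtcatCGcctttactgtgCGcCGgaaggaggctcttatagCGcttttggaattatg
The Tbc1d2b start lies at chr9:90270720-90271019 and holds 35 CpG pairs, as many as or more than which 6.95% of all promoters in the table hold. The Wnk1 start at chr6:120038606-120038905 holds 32, a density reached by 9.52% of promoters, and the Med6 start at chr12:81594959-81595258 holds 28, reached by 14.2%. These densities describe the starts and say nothing of which pairs were methylated.

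No window differed between high fibre and acetate spleen past the threshold. Of the 41388 windows, 24871 had enough reads to test and 0 passed, which is 0.0% of those tested. The smallest adjusted p was 0.501, shared by Wnk1 and Tbc1d2b, and every other window had 1.00. DESeq2 and limma's voom also called 0. Without high fibre replicate 4, 3 windows passed (Tbc1d2b, Gm22866 and Trav6n-6), and without any other single library 0 passed. At an unadjusted p under 0.05 lay 823 windows (3.31%), of which 362 were higher (1.46%) and 461 lower (1.85%) on high fibre. The 4 high fibre libraries lay above all 4 acetate libraries in 292 windows (1.17%) and below them in 300 (1.21%).

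The values bound the differences as well. The median log2 fold change of all windows was -0.0031, and 94.8% of windows lay within 0.5 of 0. The 95% interval of the difference lay within 2-fold in either direction for 20605 windows (82.8%) and within 1.5-fold for 13693 (55.1%). The intervals are centred on fold changes that are pulled toward 0 at low counts, so they are approximate there. Precision followed abundance. In the most abundant 10% of windows, with a median of 52.5 CPM, the median standard error was 0.126 and 99.9% of intervals lay within 2-fold. In the least abundant 10%, with a median of 1.53 CPM, the median standard error was 0.492 and 7.84% did. There a difference of 2-fold was not detectable for most windows, and the 16517 windows (39.9%) with too few reads to test are outside every statement here.

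**Figure D1:**
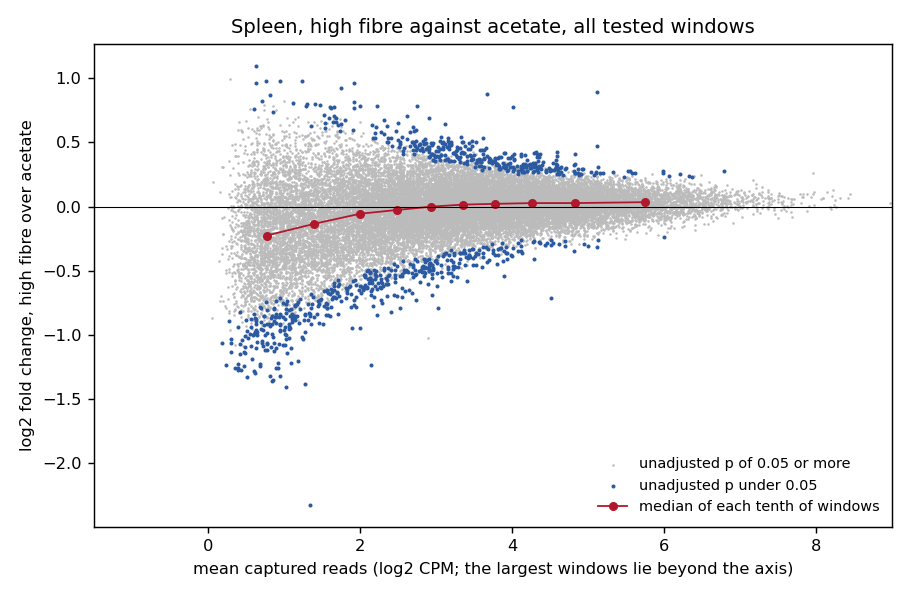
Log2 fold change of high fibre over acetate spleen (vertical axis) against mean captured reads in log2 CPM (horizontal axis) for the tested windows; 6 windows above a log2 CPM of 9 lie beyond the axis. Blue points have an unadjusted p under 0.05, and the red line joins the medians of 10 groups of equal size, from -0.22 in the least to 0.035 in the most abundant.

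The direction of the small differences moved with abundance. With the windows in 10 groups by abundance, the median log2 fold change was -0.22 in the least abundant group, -0.13 in the next, -0.00034 in the fifth and 0.035 in the most abundant. At an unadjusted p under 0.05 the least abundant group held 8 higher and 125 lower windows, and the most abundant group held 17 higher and 1 lower. By library, the median deviation of the least abundant group from the mean of 12 libraries was -0.46, 0.17, 0.31 and -0.14 on high fibre, against 0.21, 0.57, 0.19 and -0.093 on acetate. The diets overlapped there. High fibre replicate 1 was the lowest and acetate replicate 2, the library with the smallest total count, the highest. The median of this group was -0.10 without the first, -0.11 without the second and -0.34 without high fibre replicate 3, and with cyclic loess scaling, which removes trends with abundance, -0.017. The part of library depth in this pattern was not tested.

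Wnk1 (ENSMUSG00000045962, chromosome 6, 119923969 to 120038695) encodes a kinase that sets the activity of sodium and potassium chloride cotransporters and is mutated in an inherited human hypertension. Its window had 15.8, 17.5, 20.7 and 13.6 CPM in high fibre spleen, against 25.6, 33.4, 24.2 and 27.8 CPM in acetate spleen. All high fibre libraries lay below all acetate libraries. The means were 16.9 ± 2.98 CPM on high fibre, 27.7 ± 4.08 on acetate and 23 ± 2.88 on control, so that the control mean lay between the other two. The log2 fold change of high fibre over acetate was -0.71 (SE 0.14, 95% interval -1.01 to -0.42, unadjusted p = 2.93e-05, edgeR adjusted p = 0.501). Set against control, with which both contrasts share libraries, high fibre had -0.45 and acetate 0.26. With library totals as the scale, which shifted the median of all windows to -0.17, Wnk1 had -0.90 and passed (adjusted p = 0.0454).

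Med6 (ENSMUSG00000002679, chromosome 12, 81573557 to 81595008) encodes a subunit of Mediator, the complex that links transcription factors to RNA polymerase II. Captured DNA was 12.9, 11.1, 11.2 and 11.7 CPM in high fibre spleen, against 16.1, 16.3, 16.8 and 19.3 CPM in acetate spleen. The diets did not overlap, and control spleen averaged 14.7 ± 0.761 CPM, between them. The log2 fold change was -0.54 (SE 0.13, unadjusted p = 0.000279, edgeR adjusted p = 1.00).

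Egf (ENSMUSG00000028017) encodes epidermal growth factor. Its window had 4.05, 4.30, 3.57 and 3.89 CPM in high fibre spleen, against 5.47, 6.73, 10.2 and 6.23 CPM in acetate spleen, without overlap, and the 10.2 of acetate replicate 3 stood above the rest. The log2 fold change was -0.79 (SE 0.22, unadjusted p = 0.000998). Tacc3 (ENSMUSG00000037313), a stabiliser of spindle microtubules, had 3.93, 2.87, 2.68 and 4.02 CPM on high fibre, against 5.06, 4.28, 8.12 and 7.46 CPM on acetate, again without overlap. Its log2 fold change was -0.82 (SE 0.26, unadjusted p = 0.00247). Control spleen averaged 5.62 ± 0.549 CPM for Egf and 5.29 ± 1.4 CPM for Tacc3.

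The other windows on the lower side had few reads. Mib1, a ubiquitin ligase that lets Notch ligands signal, averaged 0.932 ± 0.295 CPM on high fibre and 2.90 ± 1.01 on acetate (-1.4, SE 0.43). Matr3, an RNA-binding protein of the nuclear matrix, averaged 1.28 ± 0.665 CPM on high fibre and 3.79 ± 1.67 on acetate (-1.38, SE 0.43), where the highest high fibre library (2.14) lay just above the lowest acetate library (2.11). Klk1b5, of the kallikrein gene cluster, averaged 0.905 ± 0.390 on high fibre and 2.78 ± 1.19 on acetate (-1.32, SE 0.45). Kallikrein genes have near-identical copies, so the assignment of its reads is uncertain. All 3 had an edgeR adjusted p of 1.00.

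Tbc1d2b (ENSMUSG00000037410, chromosome 9, 90202047 to 90270772), which carries the TBC domain of Rab GTPase regulators, stood at the head of the higher side. Its window had 47.4, 51.0, 37.8 and 22.2 CPM in high fibre spleen, against 16.4, 19, 23.2 and 25.6 CPM in acetate spleen. High fibre replicate 4 lay inside the acetate range and the other 3 lay above it. The means were 39.6 ± 12.9 CPM on high fibre, 21.0 ± 4.13 on acetate and 42.6 ± 2.61 on control. The log2 fold change was 0.90 (SE 0.18, 95% interval 0.52 to 1.27, unadjusted p = 4.03e-05, edgeR adjusted p = 0.501). It passed in 2 alternatives: at 1.10 without high fibre replicate 4 (adjusted p = 0.00405), and at 0.92 with all windows of at least 1 read tested (adjusted p = 0.0464). With any other single library left out it lay between 0.76 and 1.02 and did not pass. Set against control, with which both contrasts share libraries, high fibre had -0.11 and acetate -1.0 (edgeR adjusted p = 0.191 for acetate).

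The windows on both sides of Tbc1d2b were looked up after its values were seen. Toward higher coordinates Gm22717 (90315910 to 90316080) had 14.8 ± 5.25 CPM on high fibre and 7.83 ± 2.01 on acetate (0.88, SE 0.23, edgeR unadjusted p = 0.000639). Gm22866 (90351995 to 90352171) had 17.4 ± 6.91 and 9.86 ± 1.68 CPM on high fibre and acetate spleen (0.78, SE 0.22, unadjusted p = 0.00116). In control spleen Gm22717 averaged 14.4 ± 3.62 CPM and Gm22866 19.8 ± 2.18 CPM. In both, as in Tbc1d2b, high fibre replicate 4 was the lowest high fibre library, at 8.56 and 8.17 CPM. Toward lower coordinates Adamts7 had 74.7 ± 10.6 CPM on high fibre and 70.7 ± 9.49 on acetate (0.077), and Ctsh, which encodes cathepsin H, 22.5 ± 2.09 and 22.6 ± 1.74 (-0.0028). Between them Gm6223 had 10.2 ± 1.10 and 10.1 ± 1.15 CPM (0.0025), and Morf4l1, a chromatin protein read at a low level, 1.89 ± 0.490 and 1.41 ± 0.488 CPM (0.34, SE 0.51). The 3 windows with the larger differences are neighbours on the chromosome. With the filter on low counts in place and all libraries in the fit, their edgeR adjusted p was 0.501 for Tbc1d2b and 1.00 for the other two.

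Among the other windows of the higher side, Pou3f3os (ENSMUSG00000060424), a noncoding RNA gene next to the neural transcription factor gene Pou3f3, had 32.5, 32.7, 28.2 and 29.2 CPM on high fibre, against 23.5, 22.6, 21.3 and 24.3 CPM on acetate. The diets did not overlap and the control mean of 30.2 ± 2.08 CPM lay within the high fibre range. Its log2 fold change was 0.41 (SE 0.12, edgeR unadjusted p = 0.00136). Pou3f3 itself had at most 0.519 CPM on high fibre and 1.64 CPM on acetate and was not tested. Fat4 (ENSMUSG00000046743), a giant cadherin of planar cell polarity, had 24.8, 18.3, 19.1 and 23.7 CPM on high fibre, against 15.9, 15.9, 15.1 and 17.6 CPM on acetate (0.41, SE 0.13, unadjusted p = 0.00349), also without overlap. Tcf20 (ENSMUSG00000041852), a transcriptional coregulator, had 13.8, 10.7, 10.5 and 11.8 CPM on high fibre, against 8.07, 6.93, 7.54 and 9.79 CPM on acetate (0.51, SE 0.16, unadjusted p = 0.00339), without overlap. Control averaged 21.7 ± 1.26 CPM for Fat4 and 9.82 ± 0.789 CPM for Tcf20.

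The last windows named on the higher side were Gprin1, a G protein effector of neurite growth, at 12.5 ± 2.25 CPM on high fibre and 8.73 ± 0.495 on acetate (0.49, SE 0.17). Pde2a, a phosphodiesterase that cyclic GMP switches on, had 5.69 ± 1.20 CPM on high fibre and 3.14 ± 0.995 on acetate (0.78, SE 0.27). Cyp2d22, a cytochrome P450 with close paralogs, had 11.9 ± 1.62 and 8.21 ± 1.70 CPM (0.51, SE 0.17), where the lowest high fibre library (10.1) and the highest acetate library (10.2) crossed. Pcyox1l, related to prenylcysteine oxidase, had 12 ± 0.485 and 8.52 ± 1.70 CPM (0.47, SE 0.16). All 4 had an edgeR adjusted p of 1.00.

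**Figure D2:**
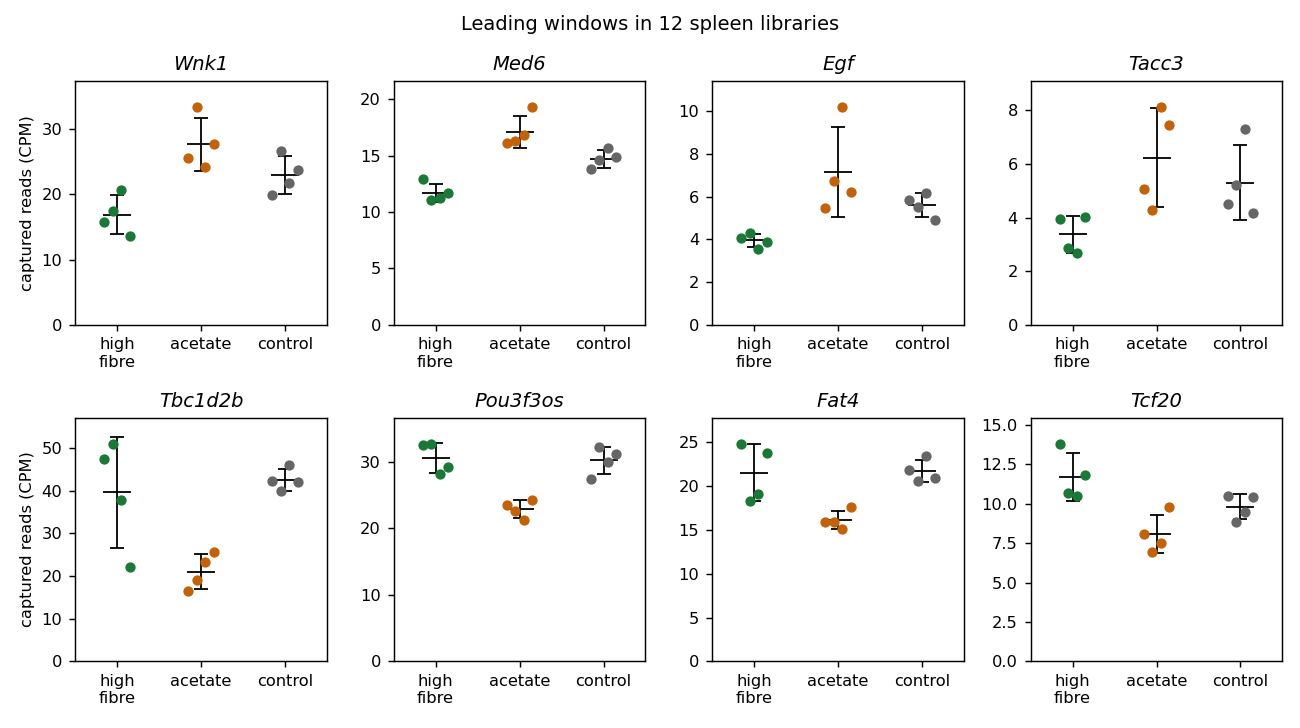
Captured reads in CPM for 8 leading windows in each spleen library (points), with the mean (long bar) and SD (whiskers) of 4 libraries per diet; high fibre is green, acetate orange and control grey. Tbc1d2b is the panel in which 1 high fibre library, at 22.2 CPM, lies inside the acetate range; in the other 7 panels high fibre and acetate libraries do not overlap.

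Trav6n-6 (ENSMUSG00000076802, chromosome 14), a variable segment of the T cell receptor alpha locus, had the largest fitted difference. Its window held 0, 0, 0 and 17 reads in high fibre replicates 1 to 4, against 37, 19, 24 and 25 reads in acetate spleen, and 19, 34, 0 and 20 reads in control spleen. In CPM the high fibre libraries had 0, 0, 0 and 2.20, against 5.06, 3.87, 4.64 and 2.78 on acetate, so that the window was either empty or read at levels that come close to each other. A count of 0 allows at most 3 reads in that library for counting error alone. The fitted log2 fold change was -2.32 (SE 0.78, edgeR unadjusted p = 0.00145, adjusted p = 1.00), and its size depends on the prior count added to the empty libraries. Without high fibre replicate 4 it was -3.96 and passed (adjusted p = 0.0452). Segments of this locus have near-identical copies, so the assignment of reads is uncertain. Over the 42 tested T cell receptor segments the median was -0.011 and the highest value 0.40.

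No gene of the lists and families described next passed the threshold. Nominally higher or lower means an unadjusted p under 0.05, which 1.46% of all tested windows reached on the higher and 1.85% on the lower side, 3.31% in all. With 17 to 42 tested genes in a list, 1 or 2 such genes are few to set against those shares. The shares also moved with abundance: the least abundant group of 2488 windows held 8 nominally higher and 125 lower. The nominally lower Gzma, B2m, Blcap, Pdgfra, Xcl1 and Nkg7 had few reads (mean log2 CPM 0.73 to 1.69). The nominally lower H13, Pax5, Psmb8, Acat2 and Wnk1 had more (2.21 to 4.51), and the nominally higher Emc7 had few (1.41). The lists were not tested against windows of like abundance. Ffar2, a receptor for acetate and propionate on leukocytes, had 61.1, 44.3, 38.9 and 45.4 CPM in high fibre spleen, against 47.2, 43.6, 40.4 and 50.5 CPM in acetate spleen (0.062, 95% interval -0.25 to 0.37). Ffar3, its sister receptor, averaged 31.3 ± 4.91 CPM on high fibre and 32.2 ± 4.71 on acetate (-0.030, interval -0.33 to 0.26). Hcar2, which binds ketone bodies, niacin and butyrate, averaged 35.0 ± 2.28 and 32.3 ± 4.20 CPM (0.11, interval -0.14 to 0.36). The libraries of both diets overlapped at all 3 receptors. With library totals as the scale Ffar2 turned to -0.10 and Hcar2 to -0.057, the median of all windows being -0.17 there.

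Of the transport and acetate-use genes, Acss2, which makes acetyl-CoA from acetate, had 6.14 ± 0.912 CPM on high fibre and 6.24 ± 0.896 on acetate (-0.025, interval -0.43 to 0.38). The monocarboxylate carrier gene Slc16a1 was read at 0.546 ± 0.438 CPM on high fibre and 0.910 ± 0.699 on acetate, too few to test. Its relative Slc16a7 had 20.6, 17.5, 19.4 and 19.1 CPM on high fibre, against 15.3, 16.3, 18.6 and 13.8 CPM on acetate (0.27, SE 0.13, edgeR unadjusted p = 0.0440), with acetate replicate 3 inside the high fibre range. Acat2, an acetyl-CoA acetyltransferase, had 11.3, 8.44, 11.1 and 11.3 CPM on high fibre, against 14.9, 11.8, 12.2 and 13.5 CPM on acetate (-0.31, SE 0.15, unadjusted p = 0.0469), without overlap. Of the 38 genes of short-chain fatty acid sensing and acetate use, 29 were tested and 0 passed, with 1 nominally higher and 1 nominally lower (6.90%) and a median of -0.011. The median of all tested windows was -0.0031.

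The writers and erasers of the mark gave tight bounds where they were read well. Dnmt1, which copies methylation at replication, averaged 19.8 ± 2.07 CPM on high fibre and 21.0 ± 0.462 on acetate (-0.084, interval -0.33 to 0.17). Dnmt3a, which methylates new sites, averaged 112 ± 9.15 and 112 ± 7.40 CPM (0.00045, interval -0.23 to 0.23), which bounds the difference to under 1.5-fold in either direction. Tet2, which starts demethylation, lay at 0.678 ± 0.578 CPM on high fibre and 0.968 ± 0.652 on acetate and was not tested. Hells, a remodeller needed for methylation of repeats, had 8.24 ± 2.83 and 11.7 ± 3.45 CPM (-0.48, SE 0.25), and Idh1, an isocitrate dehydrogenase that yields the cofactor of TET enzymes, 4.82 ± 1.39 and 6.61 ± 0.971 CPM (-0.42, SE 0.23). Of 38 genes of DNA methylation and one-carbon metabolism 32 were tested, 0 had an unadjusted p under 0.05, and the median was -0.0062.

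Among histone deacetylases and acetyltransferases, Hdac3, a class I deacetylase, averaged 16.6 ± 2.46 CPM on high fibre and 14.3 ± 3.47 on acetate (0.22, interval -0.15 to 0.58). Hdac1, of the same class, averaged 37.8 ± 3.03 and 42.2 ± 3.00 CPM (-0.16, SE 0.11), and Hdac10, a polyamine deacetylase, 2.11 ± 0.335 and 3.27 ± 0.724 CPM (-0.55, SE 0.34), where the highest high fibre library (2.46) lay under the lowest acetate library (2.56). Of 34 genes of histone acetylation 31 were tested. None reached an unadjusted p under 0.05, and their median was -0.039.

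**Figure D3:**
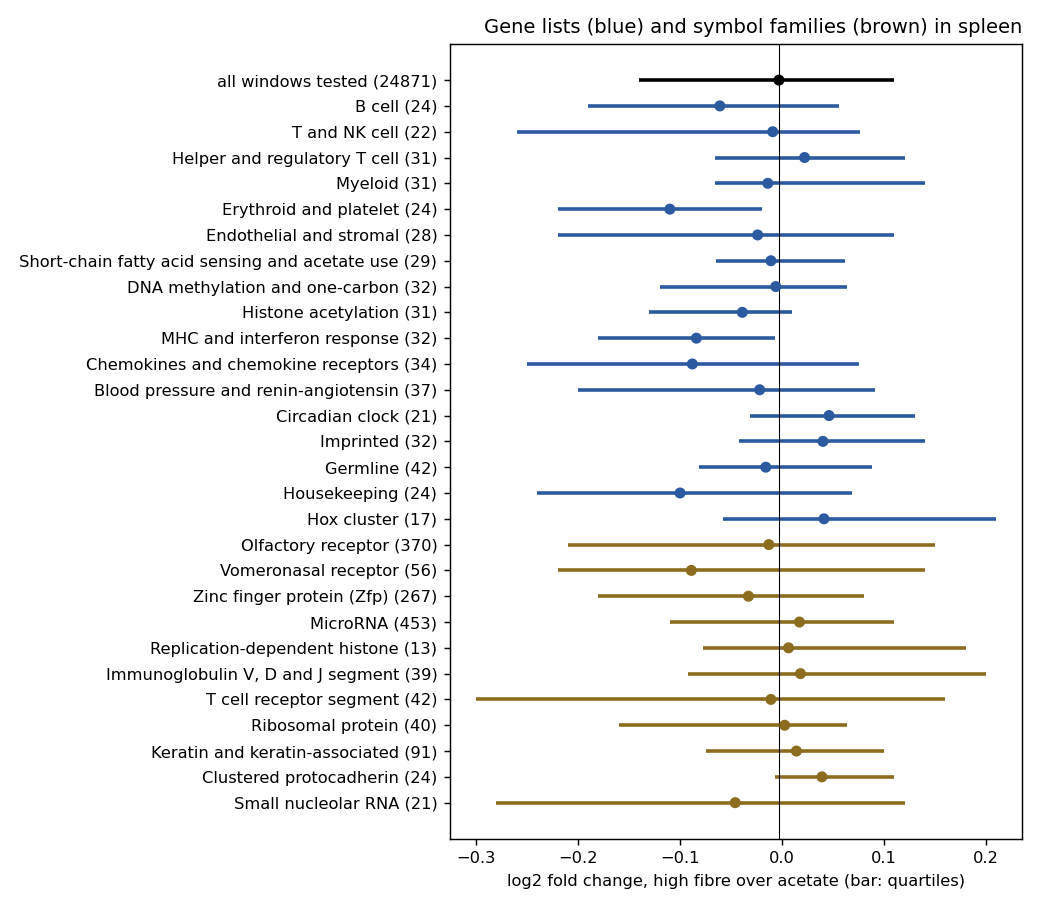
Log2 fold change of high fibre over acetate spleen for all tested windows (black), 17 gene lists (blue) and 11 families of symbols (brown): the dot is the median, the bar spans the first to the third quartile, and the number of tested windows stands in brackets. List medians run from -0.11 to 0.046 around the median of all windows, -0.0031 (vertical line).

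Of 24 tested B cell genes 1 was nominally lower and 0 nominally higher (4.17%), and their median was -0.061. That gene was Pax5, which fixes B cell identity, at 4.29, 6.85, 5.89 and 5.19 CPM on high fibre, against 7.52, 8.56, 7.93 and 6.79 CPM on acetate (-0.46, SE 0.22, edgeR unadjusted p = 0.0373). The ranges crossed by 1 library on each side. Immunoglobulin segments, of which 39 of 251 were tested, had a median of 0.018 with 1 nominally higher and 0 nominally lower (2.56%).

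Of 31 tested genes of helper and regulatory T cells 2 were nominally higher and 0 nominally lower (6.45%), with values from -0.38 to 0.40 and a median of 0.022. Foxp3, the factor that defines regulatory T cells, had 7.86, 8.44, 11.9 and 9.07 CPM on high fibre, against 8.20, 6.52, 5.80 and 6.90 CPM on acetate (0.40, SE 0.18, edgeR unadjusted p = 0.0297, adjusted p = 1.00). High fibre replicate 1 lay under acetate replicate 1, and the other 3 lay above all acetate libraries. Il17a, the cytokine of Th17 cells, had 9.65, 8.76, 9.10 and 12.7 CPM on high fibre, against 7.52, 8.36, 6.57 and 8.68 CPM on acetate, without overlap (0.36, SE 0.18, unadjusted p = 0.0462, adjusted p = 1.00). Tgfb1, a cytokine that induces Foxp3, averaged 19.7 ± 2.51 and 19.5 ± 2.64 CPM (0.0099, interval -0.30 to 0.32). Control spleen averaged 8.94 ± 0.978 CPM for Foxp3 and 9.22 ± 1.38 CPM for Il17a.

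Of 22 tested T and NK cell genes 2 were nominally lower and 0 nominally higher (9.09%), with values from -0.92 to 0.19. Their median was -0.0092, and -0.076 without high fibre replicate 3. Gzma, a granzyme, had 0.357, 1.75, 1.43 and 0.778 CPM on high fibre, against 2.05, 2.24, 2.90 and 1.78 CPM on acetate, without overlap (-0.92, SE 0.47, edgeR unadjusted p = 0.0274). Nkg7, of cytotoxic granules, averaged 2.44 ± 1.01 CPM on high fibre and 4.12 ± 1.18 on acetate (-0.67, SE 0.34, unadjusted p = 0.0429), with overlap. Cd4, the helper T cell coreceptor, averaged 20.8 ± 3.47 and 20.5 ± 2.97 CPM (0.028, interval -0.26 to 0.31).

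None of 31 tested myeloid genes reached an unadjusted p under 0.05, and their median was -0.014, but 0.036 without high fibre replicate 3 and 0.033 without acetate replicate 4. Spi1, the master factor PU.1, averaged 16.2 ± 2.63 CPM on high fibre and 16.3 ± 3.14 on acetate (-0.022, interval -0.32 to 0.28). Lcp1, the actin bundler of leukocytes, averaged 10.8 ± 1.35 and 13.4 ± 2.64 CPM (-0.29, SE 0.17), and Xcr1, a receptor of cross-presenting dendritic cells, 1.28 ± 0.232 and 1.95 ± 0.489 CPM (-0.53, SE 0.41). Erythroid and platelet genes had 0 of 24 and a median of -0.11, the lowest of the 17 lists. Gata1, the erythroid factor, lay on the other side at 14.8 ± 1.19 CPM on high fibre and 12.4 ± 1.46 on acetate (0.25, interval -0.052 to 0.55). The erythroid median was -0.045 without acetate replicate 4. Of 28 endothelial and stromal genes 1 was nominally higher and 1 nominally lower (7.14%), and the median was -0.024. They were Eng, the endothelial coreceptor endoglin, at 10.3 ± 1.48 CPM on high fibre and 7.38 ± 2.02 on acetate (0.44, SE 0.20), and Pdgfra, a stromal growth factor receptor, at 1.80 ± 1.23 and 3.39 ± 1.17 CPM (-0.86, SE 0.42).

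Among 32 tested genes of MHC and the interferon response 2 were nominally lower and 0 nominally higher (6.25%, median -0.084). Psmb8, an immunoproteasome subunit, had 7.15, 5.26, 4.46 and 5.31 CPM on high fibre, against 8.07, 8.97, 5.80 and 8.46 CPM on acetate (-0.47, SE 0.21, edgeR unadjusted p = 0.0303), where only acetate replicate 3 lay inside the high fibre range. B2m, the light chain of MHC class I, averaged 1.17 ± 0.807 CPM on high fibre and 2.26 ± 0.282 on acetate (-0.85, SE 0.47, unadjusted p = 0.0411). Among 34 chemokines and their receptors 1 was nominally lower and 0 nominally higher (2.94%). Their median was -0.088, and -0.17 without high fibre replicate 2. That was Xcl1, the ligand of Xcr1, at 2.01 ± 1.67 and 3.65 ± 0.771 CPM (-0.78, SE 0.41, and -1.37 without high fibre replicate 2), and Cxcr4, the receptor that holds cells in marrow, had 10.6 ± 2.13 and 13.3 ± 3.54 CPM (-0.32, SE 0.18).

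Of 37 tested genes of blood pressure control and the renin-angiotensin system, 1 was nominally lower and 0 nominally higher (2.70%, near the share of all windows), and their median was -0.022. It was Wnk1, described above, and the next by p was Ednra, an endothelin receptor of vascular muscle, at 1.30 ± 0.463 CPM on high fibre and 2.31 ± 0.675 on acetate (-0.70, SE 0.44). Circadian clock genes had 0 of 21 and a median of 0.046, the highest of the lists. The repressor Cry1 averaged 7.07 ± 0.914 CPM on high fibre and 8.79 ± 1.56 on acetate (-0.32, SE 0.18), and the nuclear receptor Nr1d2 4.67 ± 1.06 and 3.51 ± 0.336 CPM (0.38, SE 0.26).

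Imprinted and germline genes carry dense methylation in body tissues. Imprinted genes, of which 32 were tested, had a median of 0.040 with 0 nominally higher and 2 nominally lower (6.25%): Blcap, a regulator of cell death, at 1.66 ± 0.720 CPM on high fibre and 3.12 ± 1.70 on acetate (-0.84, SE 0.43), and H13, a signal peptide peptidase, at 3.82 ± 1.15 and 5.58 ± 1.04 CPM (-0.50, SE 0.25). Of 42 germline genes 1 was nominally higher and 0 nominally lower (2.38%, median -0.016). Pgk2, the sperm phosphoglycerate kinase, averaged 4.64 ± 2.10 CPM on high fibre and 2.62 ± 1.52 on acetate (0.79, SE 0.37), and Zp2, of the egg coat, 9.72 ± 0.488 and 7.91 ± 0.713 CPM (0.28, SE 0.16), without overlap. Of 24 housekeeping genes 1 was nominally higher and 1 nominally lower (8.33%). Their median was -0.10, and -0.023 without acetate replicate 1. Emc7, of the membrane protein complex of the endoplasmic reticulum, was the higher one at 2.81 ± 0.988 CPM on high fibre and 1.51 ± 0.534 on acetate (0.80, SE 0.40), and B2m the lower. Hox cluster genes had 0 of 17 and a median of 0.041, with Hoxa5 at 48.3 ± 3.93 and 41.6 ± 4.85 CPM (0.21, SE 0.13) and Hoxd3 at 7.73 ± 0.815 and 9.46 ± 3.05 CPM (-0.25, SE 0.21).

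Families grouped by symbol also had medians near 0. Olfactory receptors, which detect odours in the nose, had 10 nominally higher and 8 nominally lower of 370 tested (4.86%, against 3.31% of all windows) and a median of -0.013. MicroRNA genes had 11 nominally higher and 5 nominally lower of 453 (3.53%) and a median of 0.017. Zfp zinc finger genes had 0 nominally higher and 7 nominally lower of 267 (2.62%) and a median of -0.033, so that both families lay near the share of all windows. Clustered protocadherins, whose starts are methylated in a cell-by-cell pattern in neurons, had 1 nominally higher and 0 nominally lower of 24 (4.17%) and a median of 0.039. The other 7 families had medians between -0.089 (vomeronasal receptors) and 0.018 (immunoglobulin segments). Of these, small nucleolar RNA genes had the highest nominal share, 1 higher and 2 lower of 21 tested (14.3%). These are few genes to set against the 3.31% of all windows.

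Measures over whole libraries did not separate the diets either. The enrichment measure, the mean log2 CPM of imprinted and germline windows minus that of housekeeping windows, was 1.81, 1.59, 1.57 and 1.66 in high fibre spleen, against 1.46, 1.36, 1.62 and 1.68 in acetate spleen (exact permutation p = 0.257, adjusted 0.343). The top 1% of windows by count held 67.2% ± 4.13 of reads on high fibre and 63.3% ± 2.39 on acetate (exact permutation p = 0.200, adjusted 0.343). Windows with a CpG-rich RefSeq promoter (26 to 65 pairs) exceeded those with a CpG-poor one (0 to 5 pairs) by 0.693 ± 0.0322 on high fibre and 0.688 ± 0.0648 on acetate, in log2 CPM (exact permutation p = 0.857). By CpG class the median log2 fold change was -0.0084 for 0 to 5 CpG pairs, 0.0030 for 6 to 14, -0.015 for 15 to 25 and -0.017 for 26 to 65, with 3.95%, 3.79%, 2.57% and 2.86% of windows at an unadjusted p under 0.05. Chromosome medians lay between -0.023 on chromosome 14 and 0.012 on chromosome 19, and chromosome X had 0.0016 over 866 windows.

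The same contrast was read in heart, with 4 high fibre and 3 acetate libraries. The fit held all 11 heart libraries, those of the control diet included. Acetate replicate 1 had a median count of 26 per window, against 51 and 58 in acetate replicates 2 and 3. In heart edgeR called 462 of 33562 windows (1.38%), 63 higher and 399 lower on high fibre. The heart fit was not repeated without acetate replicate 1. Of the 399, 398 were tested in spleen: their median log2 fold change was -0.67 in heart and 0.027 in spleen, and 4 were higher and 2 lower in spleen at an unadjusted p under 0.05, where all tested spleen windows had 1.46% higher and 1.85% lower. Of the 63, 29 were tested in spleen, with medians of 0.73 in heart and -0.31 in spleen, 0 higher and 4 lower. The rest of the 63 had too few spleen reads to test. The 4 lower ones, Rgs13, Gm13239, Strbp and Bub1, had few reads (mean log2 CPM 0.30, 0.77, 0.82 and 1.19). Spleen windows with few reads leaned the same way, with a median of -0.22, 8 higher and 125 lower in the least abundant group. Whether the 29 or the 398 differ from windows of like abundance was not tested. The lower windows of heart were thus near 0 in spleen. The largest window took 17.3% to 21.3% of counts in high fibre heart, against 22.1% to 42.4% in acetate heart, while in spleen it took 51.8% to 61.2% on high fibre and 48.2% to 54.6% on acetate. Its part in the heart calls was not tested.

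**Figure D4:**
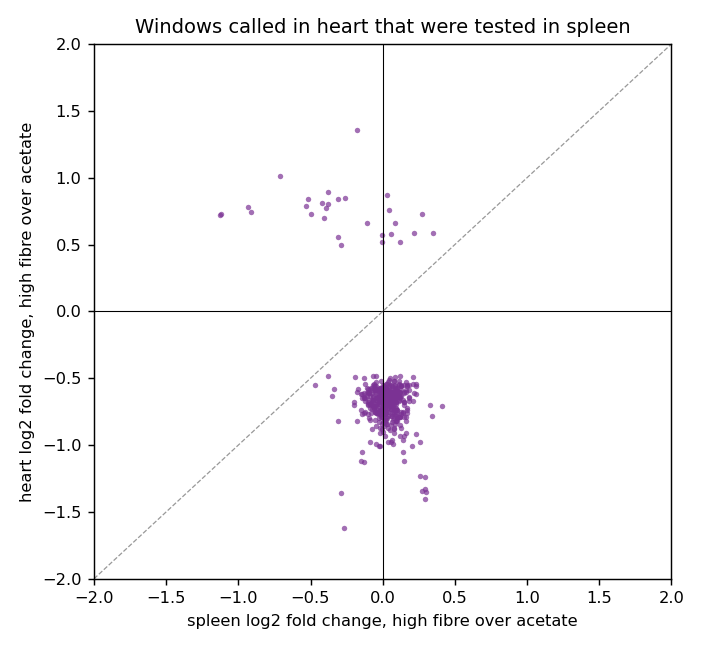
Log2 fold change of high fibre over acetate in spleen (horizontal axis) and heart (vertical axis) for the 427 windows called in heart and tested in spleen; the dashed line marks equal values. The cloud of windows lower in heart, median -0.67, centres at 0.027 in spleen, and the few higher in heart, median 0.73, centre at -0.31. The least abundant group of all tested spleen windows had a median of -0.22.

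The 2 that were lower in both tissues were Mfng and Psmb8, 2 of 398, where 1.85% of all spleen windows were nominally lower. That share moved with abundance, from 125 of 2488 windows in the least abundant group to 1 of 2487 in the most abundant. It is therefore no like measure for the 398. Mfng, a glycosyltransferase that modifies Notch, had 11.2, 19, 11.6 and 13.7 CPM in high fibre spleen, against 17, 21.0, 18.4 and 16.7 CPM in acetate spleen (-0.38, SE 0.15, unadjusted p = 0.0167, edgeR adjusted p = 1.00). In heart it averaged 42.1 ± 3.48 CPM on high fibre (n = 4) and 59.2 ± 9.36 on acetate (n = 3), a log2 fold change of -0.48. Psmb8 had 12.6 ± 0.555 CPM in high fibre heart and 18.6 ± 1.18 in acetate heart (-0.55).

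Whether the difference between the diets differs between the tissues was tested as an interaction over all 23 libraries, taken as independent. It passed for 1 of 33982 windows (0.00294%), Wnk1, with the smallest p. Of the 33982, 6752 had an unadjusted p under 0.05, against 823 of 24871 (3.31%) in the spleen contrast. The single call thus does not show that the other windows respond alike in both tissues. With the library number as a block, 3808 windows passed (2959 higher and 849 lower). The labels do not say that a number marks a mouse. Wnk1 had 103, 110, 111 and 122 CPM in high fibre heart, against 59.9, 94.4 and 83.5 CPM in acetate heart, so that high fibre lay above acetate in every heart library and below it in every spleen library. The log2 fold change was 0.48 in heart (edgeR adjusted p = 0.0508) and -0.71 in spleen. The difference, spleen minus heart, was -1.17 (SE 0.20, 95% interval -1.58 to -0.76, edgeR adjusted p = 0.0408). Leaving out 1 library at a time gave -1.31 to -1.01, and it passed in 6 of 15 such fits, with adjusted p from 0.0125 to 0.186. Without heart acetate replicate 1, Wnk1 had -1.01 (edgeR adjusted p = 0.145), and 3345 windows had an unadjusted p under 0.05. The count of windows that passed ran from 0 to 935 in those fits. It was 935 without spleen acetate replicate 4, 189 without heart acetate replicate 3, 5 without spleen high fibre replicate 3, and 2 without spleen high fibre replicate 1 or acetate replicate 3.

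The next windows by p did not pass in this fit, and those named here passed with the library number as a block. Matr3 had 21.0 ± 4.29 CPM in high fibre heart (n = 4) and 10.3 ± 4.82 in acetate heart (n = 3), with a difference of spleen minus heart of -2.30 (SE 0.48, edgeR adjusted p = 0.0838). Mib1 had 24.7 ± 2.35 and 16.7 ± 5.73 CPM in high fibre and acetate heart, with a difference of -1.93 (SE 0.43, edgeR adjusted p = 0.0841). On the other side were Clpsl2 (0.84), Cdk18, a cyclin-dependent kinase (0.82), and Cacnb1, a calcium channel subunit (0.90), all with an edgeR adjusted p of 0.119. Cacnb1 had 53.2 ± 2.94 CPM in high fibre spleen and 49.8 ± 5.94 in acetate spleen, and in heart 40.4 ± 2.36 CPM on high fibre (n = 4) and 70.6 ± 24.5 on acetate (n = 3), where the spread between acetate libraries was wide.

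At Tbc1d2b the heart values ran alongside those of spleen. High fibre heart had 74.8, 76.8, 76.9 and 40.2 CPM and acetate heart 58.4, 40.0 and 47.0 CPM (0.48, SE 0.18, edgeR adjusted p = 0.108), and control heart averaged 77.9 ± 10.8 CPM. High fibre replicate 4 was again the low one. Its difference of spleen minus heart was 0.45 (95% interval -0.15 to 1.04). Trav6n-6 had 0.182, 0, 0 and 12.9 CPM in high fibre heart, against 10.1, 9.58 and 9.43 CPM in acetate heart. Spleen and heart libraries carry a shared number in their titles. The labels do not say that it marks the mouse.

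**Figure D5:**
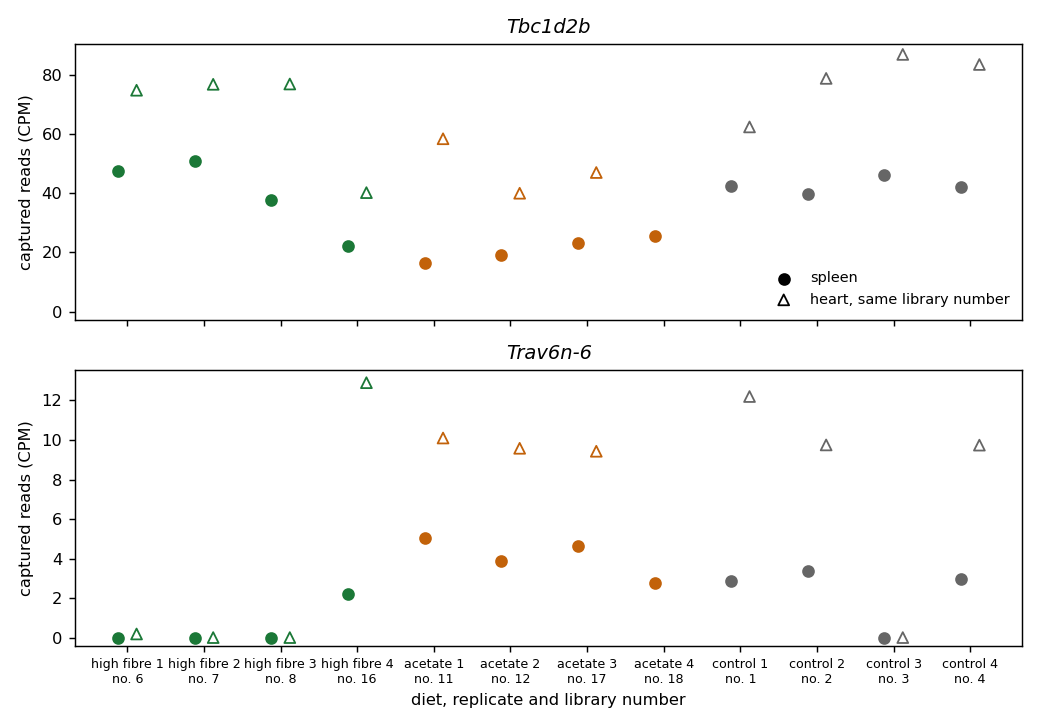
Captured reads in CPM at Tbc1d2b (top) and Trav6n-6 (bottom) in spleen (filled circles) and in the heart library of the same number (open triangles), by diet; acetate library 18 has no heart partner. High fibre replicate 4, with 22.2 CPM at Tbc1d2b and 2.20 CPM at Trav6n-6 in spleen, stands apart from the other 3 high fibre libraries in both tissues.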

How the data were processed

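Methyl-CpG capture of genomic DNA (MethylMiner) was followed by sequencing, per the labels' protocols. The authors deposited raw read counts per gene-start window for each library, with no normalization. Per the submitters' processing notes the build was GRCm38 and the tools included featureCounts 1.5.1, BWA 0.7.10, edgeR 3.16.5 and bcl2fastq 2.19.1.403. Read filters, counting strand and window centring are not given in the sources used here. Coverage of repeats and reads that fit several copies therefore enter as deposited.

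From these counts, all 12 spleen libraries were fitted together with edgeR 4.0.16 in R 4.3.3: filterByExpr with a minimum count of 10, TMM scaling, the quasi-likelihood test, and Benjamini-Hochberg adjustment at 5% over all windows tested. CPM and log2 values follow TMM, and a prior count of 2 enters the log2 values alone. Standard errors were derived from the quasi-likelihood F. The 95% intervals take the fold change with the prior count and the standard error of the fit without it. For Gzma this gave -1.89 to 0.043 beside an edgeR unadjusted p of 0.0274. The 11 heart libraries were fitted together in the same way, and the tissue difference was fitted over all 23 libraries. Library measures were compared by exact permutation tests, two-sided. Alternatives used limma 3.58.1 (voom, cyclic loess) and DESeq2 1.42.0, other scales and filters, the replicate number as a block, the 8 libraries alone, and each library left out in turn. The procedure was tested on simulated data.

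The comparison, gene lists and families were chosen with earlier results of these data known. The windows named are the 8 higher and 8 lower ones with the smallest p after skipping unnamed and predicted genes, 16 genes named whatever their value, 2 per list, and 3 per direction of the tissue difference. A few of these are not reported here. Gm22717, Gm22866, the other neighbours of Tbc1d2b, Gm10800, Pou3f3, Gm21887 and Mfng were picked after their values were seen. RefSeq entries matched 30507 windows by symbol and 1588 by synonym (77.5% of all), and 18800 (45.4%) had a promoter sequence, which for a gene with several starts need not lie in the deposited window.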

Additional observations from a re-analysis of the deposited data

Results flagged for a closer look

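In 124 groups of 4 libraries, 7 single values stood apart from the other 3 by more than Dixon's 95% criterion allows, about the number that chance gives at 1 in 20 groups. Trav6n-6 had 2.20 CPM in high fibre replicate 4 and 0 in the other high fibre libraries. Idh1 had 6.87 CPM in that library and 3.82 to 4.29 in the others. Acat2 had 8.44 CPM in high fibre replicate 2, against 11.1 to 11.3 in the others. Spi1 had 21.0 CPM in acetate replicate 4, against 14.5 to 15.1, and Nr1d2 had 3.01 CPM there, against 3.67 to 3.69. In the same library the CpG-rich minus CpG-poor measure was 0.784, against 0.643 to 0.664. Pgk2 had 4.89 CPM in acetate replicate 2, against 1.64 to 2.00.

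Wnk1 differed between the tissues in the sign of its difference between high fibre and acetate, with a difference of spleen minus heart of -1.17 on the log2 scale (edgeR adjusted p = 0.0408).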

How the results depend on the processing

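In spleen, 0 windows passed under DESeq2 factors, TMM without the 5 largest windows, a minimum count of 50, the 8 libraries alone, cyclic loess, voom and DESeq2. With library totals as the scale 1 passed (Wnk1) and with no filter beyond 1 read 1 passed (Tbc1d2b), and with a library left out 0 to 3, the 3 without high fibre replicate 4 (Tbc1d2b, Gm22866 and Trav6n-6). The count of windows that differed between tissues was 1 with DESeq2 factors or a minimum count of 50 and 3442 with library totals (5 higher and 3437 lower), which moved the median of all windows to -0.63. It ran from 0 to 935 with a library left out. The cause was not tested.

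Same-numbered high fibre and acetate spleen libraries deviated together with correlations of 0.008, 0.199, 0.042 and 0.075. Whether they share more than a number was not tested. With the replicate number as a block 0 windows passed in spleen, 1118 had an unadjusted p under 0.05, and the smallest adjusted p was 0.101. With the library number as a replicate block in the tissue test, 3808 windows passed (2959 higher and 849 lower), Matr3, Mib1, Clpsl2, Cdk18 and Cacnb1 among them. In deviations from the group means, 1 of 11 spleen libraries correlated best with the heart library of its own number. The same-number correlations ran from -0.006 to 0.296 and do not settle whether a number pairs the tissues. At Trav6n-6 and Gm21887, described below, presence and absence matched in 11 of 11 numbers.

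Genes near 0 turned sign. With library totals Ffar2 had -0.10, Hcar2 -0.057, Dnmt3a -0.17, Cd4 -0.15 and Tgfb1 -0.17. With no filter Ffar3 had 0.0019, Acss2 0.0048 and Spi1 0.0094. With a minimum count of 50 Dnmt3a had -0.03 and Tgfb1 -0.015, and with the 8 libraries alone Dnmt3a had -0.0027. Dnmt3a had -0.00058 with the replicate block, -0.04 with cyclic loess and -0.00098 with voom. Cyclic loess gave Cd4 -0.011 and Tgfb1 -0.012. With a library left out Ffar2 ran from -0.086 to 0.15, Ffar3 from -0.12 to 0.063, Acss2 from -0.09 to 0.081, Dnmt3a from -0.049 to 0.038, Cd4 from -0.069 to 0.14, Spi1 from -0.13 to 0.14, Tgfb1 from -0.042 to 0.10 and the CpG-rich minus CpG-poor measure from -0.0103 to 0.0369. Medians of windows or groups moved by more than their spread in 43 settings, 29 of them library totals. The medians of the least and most abundant windows were added after seeing the data, and a minimum count of 50 left no value for the least abundant. Windows under about 2 CPM set the limit of depth.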

Other observations

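Trav6n-6 and Gm21887 were near absent in some libraries and well read in others, and the libraries were the same by number in both tissues. Of 31 windows in which every library had either at most 1 read or at least 5, these were the 2 in which all numbers matched between the tissues, and they were picked after their values were seen. In the others 0 to 10 of 11 numbers matched, with 9 for Trav16d-dv11. For Trav6n-6 the spleen and heart libraries were alike in 11 of 11 numbers, with high fibre replicates 1 to 3 and control replicate 3 absent. For Gm21887, a predicted gene on the X chromosome, they were also alike in 11 of 11 numbers. It had 5.12, 3.66, 4.64 and 0 CPM in high fibre spleen, against 7.79, 6.73, 15.3 and 0 CPM in acetate spleen.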
